A study of Caenorhabditis elegans with 2 samples.

Results

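The genes described here were 6 regulators of the Caenorhabditis elegans hypoxia response, hif-1, egl-9, vhl-1, rhy-1, cysl-1 and swan-1, of 19973 protein-coding genes. They were examined in chromatin immunoprecipitation sequencing (ChIP-seq) of the homeodomain protein ALR-1, which pulls down a protein with the DNA it sits on and sequences that DNA. The genes were selected on earlier results of these same lists, in which peaks near hif-1 and egl-9 were already known, so the peaks at the members are a description and were not tested. A region was given to a gene when its nearest protein-coding transcript start was that gene's or when its central point lay in the gene body. By this rule the members held 18 of the 12996 candidate regions called on both replicates together (the pooled list), 11 of 5071 in replicate 1 and 11 of 7568 in replicate 2. A further list held the 103 peaks that passed the irreproducible discovery rate (IDR), a score built on how alike regions rank in replicates. Of these, 2 were at members. The 103 peaks were the first 103 pooled regions by signal, and 84 of them (81.6%) overlapped a region in both replicates. Being on the IDR list thus did not mean that a peak ranked alike in both.

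All samples formed 1 group of 2 biological replicates. The animals were whole second-stage (L2) larvae of mixed sex, of the strain OP200 with the genotype unc-119(ed3) III; wgIs200. This strain carries an inserted alr-1 tagged with eGFP, in animals that also bear the unc-119 mutation. Whole larvae were used, so the cells in which a region was bound are not known, and no untagged group was analysed here. Candidates include background as well as peaks, so being listed does not make a region a peak. Each region carries a signal value in units of the authors' caller, and signals of different lists were not set against each other. The depth of the libraries is unknown.

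HIF-1 is the oxygen-regulated bHLH-PAS transcription factor of the worm. When oxygen is plentiful, the prolyl hydroxylase EGL-9 modifies HIF-1, and VHL-1, the worm homolog of the von Hippel-Lindau tumour suppressor, then directs HIF-1 to degradation. RHY-1, a transmembrane protein with an acyltransferase domain, and SWAN-1, a WD-repeat protein that binds EGL-9, also hold HIF-1 activity down. CYSL-1, a member of the cysteine synthase family, acts the other way by binding and inhibiting EGL-9 when hydrogen sulfide builds up. HIF-1 binds hypoxia response elements, and egl-9 and rhy-1 are themselves among the genes it activates.

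The DNA at the strongest region of the 4 members with the highest pooled signals is shown first, because 2 of these regions were IDR peaks and because the regions differ in how many hypoxia response element cores they hold. Bases were read from WBcel235, the sequence of ce11, on the plus strand, from 100 bp before to 100 bp after the point. At rhy-1 they stop at the last base before the transcript start. Capitals mark ACGTG or GCGTG on either strand, the core of the hypoxia response element. No run below held TAATTA, the core bound by many homeodomain proteins.
hif-1 (chrV:20778389-20778589): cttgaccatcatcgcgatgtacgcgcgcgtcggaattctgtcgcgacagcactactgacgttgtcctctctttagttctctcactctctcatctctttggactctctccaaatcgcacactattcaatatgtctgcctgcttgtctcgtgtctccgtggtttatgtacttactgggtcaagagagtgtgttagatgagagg
egl-9 (chrV:10466677-10466877): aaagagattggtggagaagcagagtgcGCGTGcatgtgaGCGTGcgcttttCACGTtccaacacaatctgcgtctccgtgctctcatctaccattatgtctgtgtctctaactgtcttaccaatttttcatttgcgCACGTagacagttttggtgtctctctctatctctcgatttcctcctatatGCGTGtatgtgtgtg
swan-1 (chrV:13808663-13808863): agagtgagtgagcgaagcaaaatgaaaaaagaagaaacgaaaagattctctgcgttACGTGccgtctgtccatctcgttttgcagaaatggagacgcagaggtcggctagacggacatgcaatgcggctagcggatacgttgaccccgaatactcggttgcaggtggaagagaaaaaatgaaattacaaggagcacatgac
rhy-1 (chrII:9161264-9161378): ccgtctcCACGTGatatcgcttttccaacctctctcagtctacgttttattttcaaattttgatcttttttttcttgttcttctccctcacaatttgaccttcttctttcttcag
The hif-1 run held 0 cores and had 48.8% G and C. The egl-9 run held 5 separate cores (46.3% G and C), and the swan-1 run held 1 (47.3%). At rhy-1 the capitals are 1 palindrome, CACGTG, which reads as a core on each strand and was counted as 2. The sequence TAAT, or its reverse complement ATTA, occurred 0 times in the hif-1 run and 1 time each in the egl-9 and swan-1 runs. The shorter rhy-1 run held 0, but the full window around that region's point held 2. Within 100 bp of the point, 13 of the 18 member regions (72.2%) and 80.5% of all pooled regions held at least 1.

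The transcription factor gene hif-1 (WBGene00001851, V:20780407-20785260, plus strand, 4 transcript starts) had 6 pooled regions and 1 IDR peak. The peak, at V:20778329-20778648, lay in sequence with no annotated gene, 1918 bp upstream of the first hif-1 start and 3120 bp from that of the next gene, F38A6.4. Its pooled signal was 21.4, at rank 100 of 12996 (0.769% of the list). This was close to the end of the IDR list, whose last peak, at rank 103 beside plrg-1, had a signal of 21.3, while the first pooled region outside it, beside cmt-1, had 21.2. The hif-1 peak overlapped no region of replicate 1. In replicate 2 it overlapped the region of rank 43 (0.568% of the list, signal 17.9), whose point was 85 bp away. The closest replicate 1 point lay 1167 bp from the peak's point and was nearest to F38A6.4. An IDR peak with no region in replicate 1 was not peculiar to hif-1, since 16 of 103 (15.5%) had none. In replicate 1 the best hif-1 region ranked 2292 of 5071 (45.2% of the list), so the high rank at hif-1 rests on replicate 2.

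The remaining 5 pooled regions of hif-1 were weaker, with signals from 3.70 to 10.9. The highest of them, at V:20782354-20782673 (rank 932), lay 42 bp downstream of the innermost hif-1 start, and it overlapped a replicate 2 region of rank 4385 and none in replicate 1. A region 219 bp downstream of a start near the 5′ end (signal 5.91, V:20780472-20780791) and another 1423 bp upstream of the gene (signal 4.52, V:20778824-20779143) were also matched in replicate 2 and unmatched in replicate 1. The region at V:20781723-20782042 (signal 4.64) was the hif-1 region found in both, at rank 2292 in replicate 1 and rank 7395 in replicate 2. The weakest, at V:20780988-20781307 (signal 3.70), was found in neither. Replicate 1 gave hif-1 1 region and replicate 2 gave it 5, so the picture of this locus came mostly from replicate 2.

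**Figure D1:**
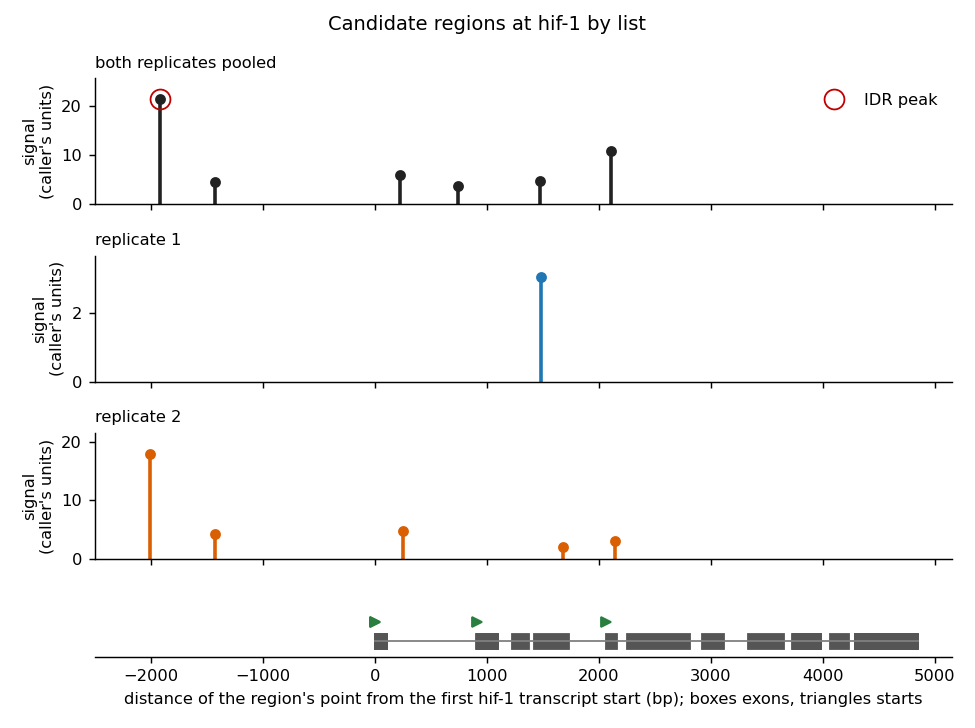
Signal of each candidate region (caller's units, a separate scale for each panel) against the distance of its point from the first hif-1 transcript start (bp), for the pooled list and each replicate, above the exons (boxes) and transcript starts (triangles), with the IDR peak ringed. The IDR peak stands 1918 bp upstream in the pooled list and has a counterpart in replicate 2 but none in replicate 1.

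The prolyl hydroxylase gene egl-9 (WBGene00001178, V:10468517-10476915, plus strand, 5 transcript starts) had 7 pooled regions and the highest-ranked region of the 6 genes. Its IDR peak, at V:10466617-10466936, had a pooled signal of 31.2 and rank 16 (0.123% of the list). It was 1740 bp upstream of the first egl-9 start and 3401 bp from that of F22E12.3. In replicate 1 it overlapped the region of rank 19 (0.375% of the list, signal 13.3), and in replicate 2 the region of rank 55 (0.727%, signal 17.0). The replicate 1 point was 0 bp and the replicate 2 point 8 bp from the pooled point, so position and high rank held in both libraries. The peak's point lay within a pair of overlapping non-coding RNA genes on opposite strands, F22E12.9 (V:10466680-10466824, minus) and F22E12.10 (V:10466669-10466813, plus). Assignment to egl-9 rests on the nearest protein-coding start, and a role of the peak at these non-coding genes was not tested.

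Inside and just before egl-9, 6 weaker pooled regions had signals from 2.63 to 8.77. An intronic region at V:10469194-10469513 (signal 8.77) ranked 682 in replicate 1 and 2479 in replicate 2. A region 80 bp upstream of an internal start (V:10470184-10470503, signal 7.29) ranked 4171 in replicate 1 and 5530 in replicate 2. These, with the IDR peak, were the 3 egl-9 regions found in both replicates. The intronic region at V:10471177-10471496 (signal 4.38) matched rank 380 of replicate 1 and nothing in replicate 2, and it touched the non-coding RNA gene Y32F6B.6. The region 1168 bp upstream of the gene (signal 5.46) matched rank 1245 of replicate 1. The weakest, 228 bp upstream of the innermost start (signal 2.63), matched rank 5071 of replicate 1, the last of that list. An exonic region at V:10474908-10475227 (signal 4.05) matched rank 7389 of 7568 in replicate 2. Here replicate 1 had more regions, 8 against 4 in replicate 2, the reverse of hif-1. The exonic replicate 1 regions at V:10475396-10475785 and V:10475598-10475987 overlap, so they are not separate measurements.

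**Figure D2:**
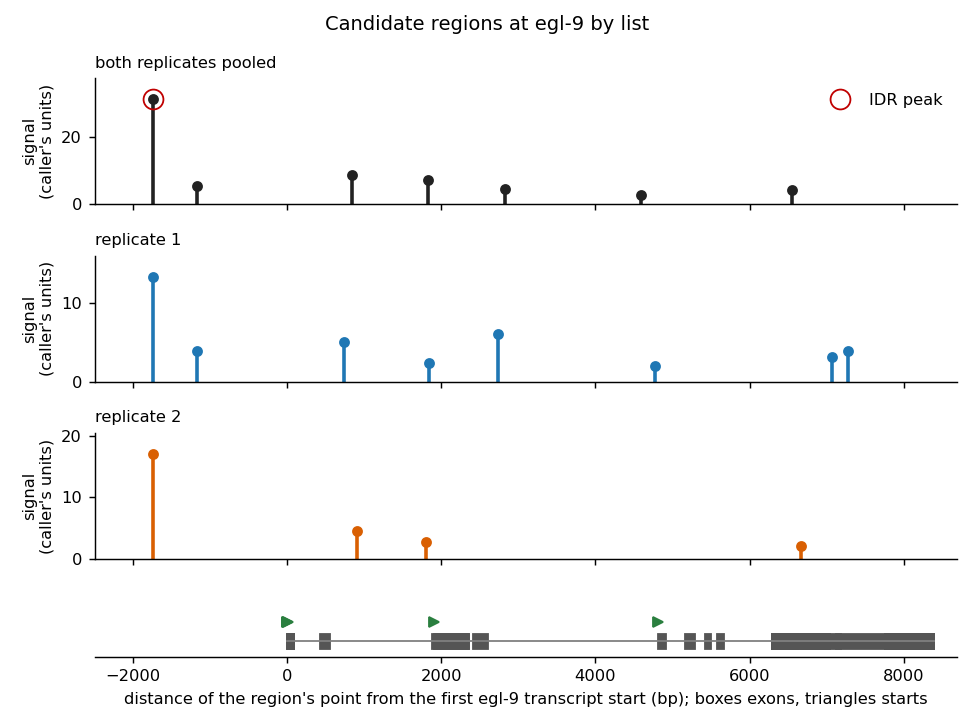
Signal of each candidate region (caller's units, a separate scale for each panel) against the distance of its point from the first egl-9 transcript start (bp), for the pooled list and each replicate, above the exons (boxes) and transcript starts (triangles), with the IDR peak ringed. The region 1740 bp upstream is the highest in the pooled list and in both replicates.

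The von Hippel-Lindau gene vhl-1 (WBGene00006922, X:11307356-11308518) had 1 pooled region, 131 bp downstream of its start (X:11307327-11307646). Its signal was 2.99, at rank 9865 (75.9% of the way down the list). Neither replicate had a region there, and the closest points were 9422 bp away in replicate 1 and 16755 bp away in replicate 2. For swan-1 (WBGene00009977, V:13804395-13807237, minus strand) the lists differed. In replicate 2 a region 1524 bp upstream had rank 220 (2.91% of the list, signal 11.9), while in replicate 1 no point was nearer than 18097 bp. The pooled region there (V:13808603-13808922) had a signal of 7.17 and rank 2356 (18.1%), outside the IDR list. The next protein-coding start, that of the homeobox gene ceh-24, was 4468 bp from its point.

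Of the genes that act on EGL-9 from upstream, rhy-1 (WBGene00012324, II:9161379-9163448, plus strand) had 3 pooled regions, all matched in replicate 1 and none in replicate 2. The strongest, 15 bp upstream of the start (II:9161204-9161523), had a signal of 5.85 and rank 3453 (26.6%). It overlapped the second (II:9161428-9161747, signal 3.41), and both touched 1 replicate 1 region of rank 1240, so they are not separate measurements. The third lay 1030 bp upstream (signal 3.38) and matched rank 4694 of replicate 1. In replicate 2 the closest point to any of them was 15655 bp away. The cysteine synthase family gene cysl-1 (WBGene00007653, X:9952579-9954533, minus strand) had no pooled region and none in replicate 1. Replicate 2 had 1, at X:9956500-9956803, 2119 bp upstream, with a signal of 4.56 and rank 2406 (31.8%). The same intergenic stretch held an IDR peak at X:9958640-9958959 (signal 21.4, rank 99), which was 160 bp from the start of ZC506.1 and 4267 bp from that of cysl-1, and so was not given to cysl-1. That peak ranked 76 in replicate 1 and 4957 in replicate 2.

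Set side by side by their strongest pooled region, the genes ran egl-9 (31.2), hif-1 (21.4), swan-1 (7.17), rhy-1 (5.85) and vhl-1 (2.99), with cysl-1 last. This order was not kept by the replicates. Replicate 1 placed egl-9 (13.3) above rhy-1 (3.95) and hif-1 (3.05) and had no region at the other members. Replicate 2 placed hif-1 (17.9) above egl-9 (17.0), swan-1 (11.9) and cysl-1 (4.56). In both replicates egl-9 had a region in the first 1% of the list, and it was the only member that did. Neighbours further down the order cannot be separated with 2 replicates.

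**Figure D3:**
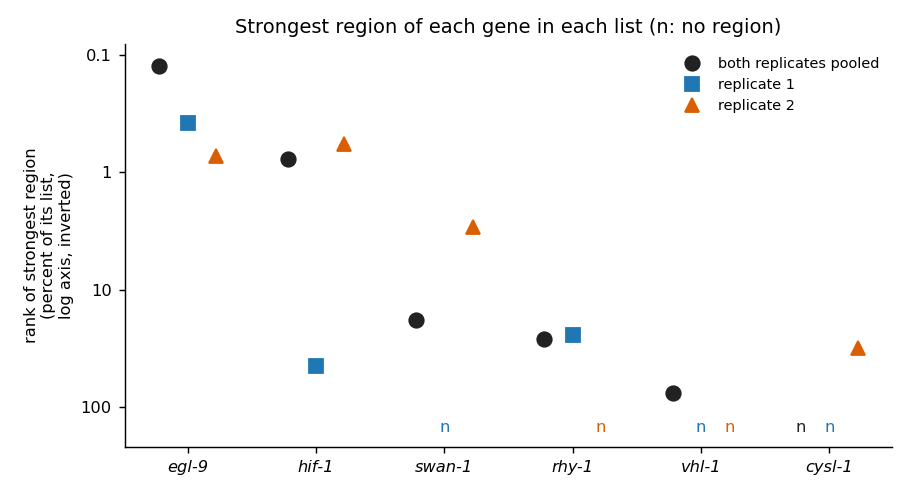
Rank of the strongest region of each gene as a percent of its list (log axis, inverted, so that strong regions are at the top), for the pooled list and each replicate; n marks a list with no region. The 3 markers of egl-9 all lie between 0.123% and 0.727%, while those of hif-1 run from 0.568% in replicate 2 to 45.2% in replicate 1.

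A pooled region was found at 5 of the 6 members, against 39.0% of all protein-coding genes. An IDR peak was found at 2 of 6, against 0.521% of all genes, but nothing can be read from this count since the members were chosen with it known. Replicate 1 had a region at 3 of 6 members (20.0% of all genes), and replicate 2 at 4 of 6 (25.6% of all genes). Among genes with any region the median number of pooled regions was 1. At least 7 regions, as at egl-9, were found at 176 genes (0.881% of all), and at least 6, as at hif-1, at 269 (1.35%). The pooled and replicate counts are not independent of how the members were chosen either. They take in the known peaks of egl-9 and hif-1 or replicate regions that overlap them.

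Both of these genes command more sequence than most, so regions were also counted per kb of the bases nearest to a gene's starts or inside its body. For egl-9 this was 10969 bp with 0.638 regions per kb, and for hif-1 8099 bp with 0.741. The highest value was that of rhy-1, 0.779 per kb of 3850 bp, of which 2 of the 3 regions overlap. The single region of vhl-1 gave 0.453 per kb and that of swan-1 0.171, and cysl-1 had 0. The whole genome had 0.130 per kb, a value that 1 region in a territory of the median size, 4295 bp, already passes. The median density over all genes was 0. A density at least as high as that of egl-9 was found for 3.18% of all genes, of hif-1 for 2.04%, of rhy-1 for 1.74%, of vhl-1 for 7.32% and of swan-1 for 27.9%.

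**Figure D4:**
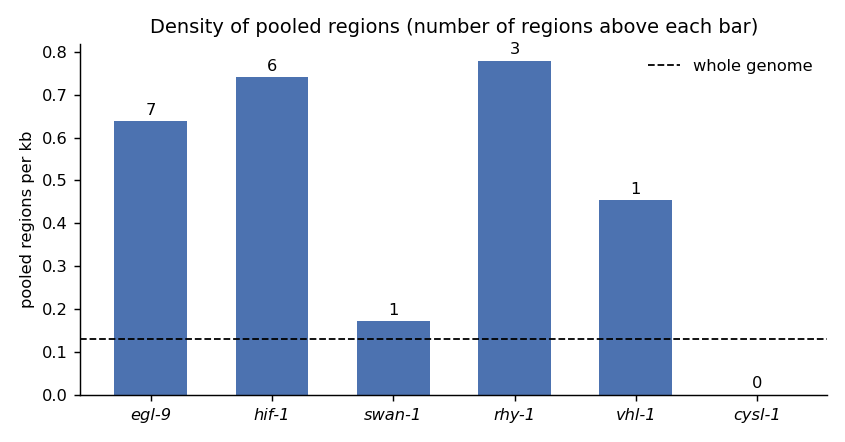
Pooled candidate regions per kb of sequence nearest to a gene's transcript starts or inside its body, with the number of regions above each bar; the dashed line is the whole genome, 0.130 per kb. The bars of rhy-1, hif-1 and egl-9 lie between 0.638 and 0.779 per kb, and cysl-1 has 0.

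The 18 member regions had a median signal of 5.05, where that of all pooled regions was 3.89, and 16 of them lay below the IDR list. Promoters (1000 bp upstream to 200 bp downstream of any transcript start) held 8 of the 18 (44.4%), beside 40.3% of all pooled regions. With 4 annotated starts in hif-1 and 5 in egl-9, some of them a few bp apart, several of these regions lie within the gene. Promoter here means only this window, and promoter activity was not tested. Introns held 3, exons 1 and intergenic sequence 6. The strongest regions of egl-9, hif-1 and swan-1 were all intergenic and lay between 1500 and 2000 bp upstream of a start. That interval held 3 of the 18 member regions (16.7%), 5 of 103 IDR peaks (4.85%) and 4.49% of all pooled regions. The interval was drawn around these members after their positions were seen, so the shares describe it and no more.

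**Figure D5:**
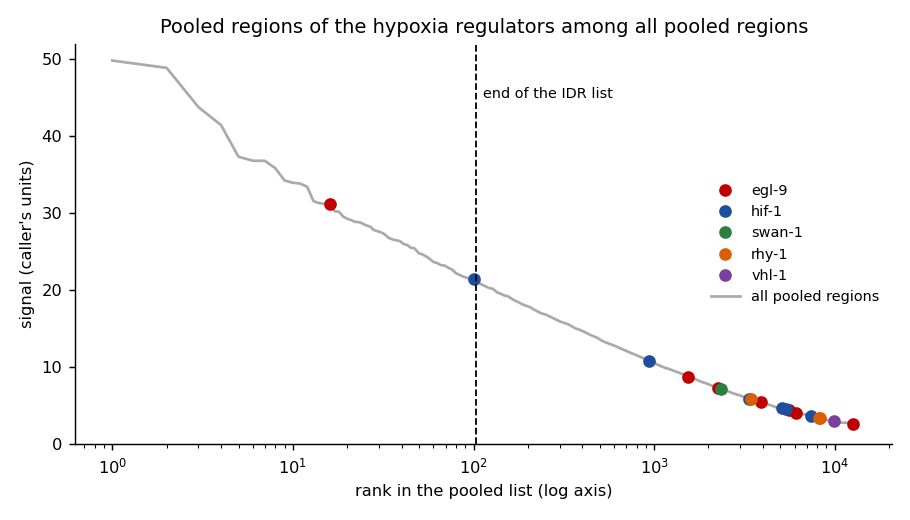
Pooled signal (caller's units) against pooled rank (log axis) for all regions (line) and for the 18 member regions (points). One egl-9 and one hif-1 region lie left of the end of the IDR list, the hif-1 region at rank 100 next to it, and the other 16 lie from rank 932 downwards.

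Replicate 1 had a region at 10 of the 18 member regions (55.6%) and replicate 2 also at 10, beside 30.9% and 48.6% of all pooled regions. Both had one at 4 (22.2%, exact 95% interval 6.41 to 47.6), beside 13.3% of all. The interval treats regions as independent, which regions of the same gene are not. Among the 4 is the egl-9 IDR peak, known when the members were chosen. The overlapping rhy-1 regions share a single replicate 1 match, which was counted for each. Neither had one at 2, the weakest hif-1 region and that of vhl-1 (11.1%), beside 33.8% of all. The genes pulled in opposite directions, since replicate 1 matched 6 of 7 egl-9 and 3 of 3 rhy-1 regions but 1 of 6 at hif-1, while replicate 2 matched 5 of 6 at hif-1, 4 of 7 at egl-9 and 0 of 3 at rhy-1.

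The hypoxia response element core was present within 100 bp of the point of 12 of the 18 member regions (66.7%). The exact 95% interval, which treats regions as independent, was 41.0 to 86.7. The share was 46.6% of the 103 IDR peaks and 33.1% of all pooled regions. The genes were chosen as hypoxia regulators, and HIF-1 activates egl-9 and rhy-1, so the member share is not independent of that choice. By gene, the core was at 5 of 7 egl-9 regions, 2 of 6 hif-1 regions, all 3 of rhy-1 and the single regions of swan-1 and vhl-1. The overlapping rhy-1 regions share bases, and regions of 1 gene are not independent, so no test was made. Median G and C content was 39.6% in member regions, 44.3% in IDR peaks and 37.8% in all pooled regions, and its part in these shares was not tested. The 5 cores at the egl-9 peak were matched or passed by 21 of the other 12995 pooled regions (0.162%), and by no other IDR peak. A core is a letter match and does not show that HIF-1 binds there.

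Cores are common near starts. In the 1201 bp around the first start of each gene (1000 bp upstream to 200 bp downstream), 82.1% of the 19973 protein-coding genes had at least 1, with a median of 2. The members had 6 at rhy-1, 4 each at egl-9, vhl-1 and swan-1, 2 at cysl-1 and 0 at hif-1. A promoter with 0 was found for 17.9% of genes and 1 with at least 6 for 5.12%. The homeodomain core TAATTA was within 100 bp of the point of 1 member region of 18 (5.56%), the intronic egl-9 region of signal 4.38, beside 7.97% of all pooled regions and 7.77% of IDR peaks. In the 1201 bp windows it occurred 2 times at hif-1 and vhl-1, once at egl-9 and cysl-1 and 0 times at rhy-1 and swan-1, and 47.4% of all genes had it.

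Genes whose strongest nearest region ranked most like those of the members were sought among the 2055 genes with a region in all 3 lists, by the distance of log10 ranks over these lists. For hif-1 (ranks 100, 2292 and 43 in the pooled list, replicate 1 and replicate 2) they were Y37A1B.7 (106, 2032 and 54), W07E11.1 (131, 2608 and 46) and trap-1 (112, 1311 and 48). For egl-9 (16, 19 and 55) they were C41A3.2 (19, 32 and 34), rsp-6 (23, 54 and 71) and eef-1A.2 (12, 16 and 15). The pooled list was called on both replicates together, so the 3 ranks are not independent. The 3 ranks of a gene also need not belong to 1 site. At hif-1, rank 2292 was that of a region inside the gene, and the pooled region of rank 100 overlapped none in replicate 1. The pooled region of Y37A1B.7 (rank 106) overlapped none there either.

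None of 41 further genes of the hypoxia pathway, sulfide metabolism, oxygen-sensing neurons and other stress responses had an IDR peak, which 0.521% of all genes had (42 were listed, and sqrd-2 was not matched by name). A pooled region was found at 26 of the 41 (63.4%), beside 39.0% of all genes. Of these, 8 were the stress factor genes outside the hypoxia pathway, and without them the count was 18 of 33 (54.5%). Replicate 1 had a region at 15 of the 41, but at 7 of the 33 (21.2%), beside 20.0% of all genes. Replicate 2 had one at 18 of the 41 and at 11 of the 33 (33.3%), beside 25.6% of all genes. A pooled region matched in both replicates was found at 3 of the 41 and 0 of the 33, beside 7.03% of all genes. Gene size was not taken into account in these shares.

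Around HIF-1 itself, 2 of 5 genes had a pooled region, a share of 40.0% that lay at the 39.0% of all genes. They were aha-1, which encodes the dimer partner of HIF-1 (signal 3.37, rank 8436), and the ubiquitin ligase gene rbx-1 (rank 11684). The ligase genes cul-2, elb-1 and elc-1 had none, and no replicate had a region at any of the 5. Of the genes for SWAN-1-related proteins, swan-2 had none, and the kinase gene mbk-1, whose product binds SWAN-1, had 2. The stronger lay 2233 bp upstream with a signal of 8.91 (rank 1504). That region matched rank 881 of replicate 2 and nothing in replicate 1.

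Of 11 HIF-1 target genes 7 had a pooled region (63.6%, beside 39.0% of all genes), and 0 had one matched in both replicates. The strongest was at the nuclear hormone receptor gene nhr-57, 22 bp downstream of its start (signal 9.31, rank 1359). It matched rank 3023 of replicate 2 and nothing in replicate 1. The cysteine and sulfide list had 4 of 11 (36.4%), near the share of all genes. Its strongest region was assigned to the cystathionine beta-synthase gene cbs-1 (signal 9.20, rank 1395). It lay 2313 bp upstream of the nearest protein-coding start and in an intron, which need not be one of cbs-1. Replicate 2 matched it at rank 2607, and replicate 1 had no match. Among genes of oxygen-sensing neurons 5 of 7 had a pooled region (71.4%, beside 39.0% of all genes), and 0 had one matched in both replicates. The guanylate cyclase gene gcy-33 came first (524 bp upstream, signal 10.3, rank 1052). Its region matched rank 1558 of replicate 2 and nothing in replicate 1. All 8 of the other stress factor genes had a pooled region, beside 39.0% of all genes, with gene size not taken into account. A pooled region matched in both replicates was found at 3 of them, beside 7.03% of all genes. The strongest of these, 222 bp upstream of the bZIP gene zip-2, had a signal of 17.2 and rank 225, with ranks 764 and 727 in replicates 1 and 2. Of the regions of the 6 members, the IDR peaks of egl-9 and hif-1 ranked above it.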

How the data were processed

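ChIP-seq of eGFP-tagged ALR-1 was available as region lists for 2 biological replicates of L2 larvae in 1 group, so no groups were compared. Per the notes deposited with the files, candidates were called by the authors for each replicate and for both together, each with a further file whose role the notes do not name, and derived the optimal IDR list from these. The aligner, the caller, the IDR threshold and the read depth were not given in the sources used here, so no precision could be derived from depth. The deposited signal per region is on the caller's own scale, and was used to rank regions within a list. The deposited −log10 q-values reach a ceiling and were not used for ranks. All 4 lists used are on ce11, and the ce10 lists were not used. All ce11 regions lay inside the chromosomes of WBcel235. Genes and transcript starts came from Ensembl release 115, and bases from the RefSeq copy of WBcel235.

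Overlap meant at least 1 bp. Shares of regions have exact Clopper-Pearson 95% intervals, which cover counting error only. No p-value was computed. The members, the pathway lists and all windows were chosen with earlier results of these data known. The named genes were the members, the gene with the strongest pooled region in each pathway list, any list gene with an IDR peak, 3 genes of like ranks for each of hif-1 and egl-9, and neighbours of member regions. Genes beside the end of the IDR list, ZC506.1 and list genes named for having no region or a weak one were named after their values were seen. Alternatives covered assignment, promoter, overlap and motif windows, the peak set, and each replicate alone. The code was tested on simulated data. Scripts ran in Python 3.11.15 with pandas 2.3.3 and numpy 2.4.6, intervals came from scipy 1.17.1, and plots from matplotlib 3.10.9.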

Additional observations from a re-analysis of the deposited data

How the results depend on the processing

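No paired analysis was possible because both replicates belong to 1 group. The count of 18 member regions was the same when regions were assigned by nearest start alone, by a nearest start within 3000 bp, or by nearest start or any overlap of the region with the gene body. It was 11 with either replicate alone, and the regions differed, since replicate 1 gave 8 to egl-9, 2 to rhy-1 and 1 to hif-1, and replicate 2 gave 5 to hif-1, 4 to egl-9 and 1 each to swan-1 and cysl-1. The 2 IDR peaks became 1, that of egl-9, among the first 51 pooled regions, and there were 2 among the first 206. Among the 103 strongest regions of a single list there was 1 without replicate 2 (egl-9) and 2 without replicate 1. The promoter share of member regions (44.4%) was 88.9% when promoters reached 2000 bp upstream, which takes in the IDR peaks of hif-1 and egl-9, and 27.8% from 500 bp upstream to 100 bp downstream. The TAATTA share (5.56%) was 0% within 50 bp and 11.1% within 250 bp. The share with a hypoxia response element core (66.7%) was 44.4% within 50 bp and 88.9% within 250 bp, beside 19.7% and 58.4% of all pooled regions in these windows. The share with a region in both replicates (22.2%) was 16.7% when each had to cover at least 50% of the pooled region. For the promoter, TAATTA and overlap alternatives no share of all pooled regions is given, so these values do not set the members apart from the whole list. All alternatives were planned. Read depth is unknown, so a missing region in 1 replicate does not show that the site was unbound there.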
